A study of Mus musculus with 26 samples.

Results

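Replication-dependent histone genes encode the bulk of the histones that package newly copied DNA. The set described here was chosen by gene symbol, taking every symbol of the Hist1, Hist2, Hist3 and Hist4 clusters that names an H1, H2A, H2B, H3 or H4 gene, and keeping those with at least 1 RNA count in any library. The rule kept 64 of the 20430 symbols in the RNA table, namely 6 H1, 17 H2A, 17 H2B, 11 H3 and 13 H4 genes. Because the rule required RNA counts above 0, the presence of these genes in the RNA is no finding, while differences between conditions were not used to choose them. Just inside the rule were Hist2h2ab, with 3 RNA counts in all, and Hist1h2al, with 4. Just outside it, 4 symbols had no RNA count: Hist1h2aa, Hist1h2ba, Hist2h2aa2 and Hist2h3c1, of which Hist2h2aa2 had 15131 and Hist2h3c1 12847 ribosome footprint counts. RefSeq placed 52 of the 63 members that matched 1 gene on chromosome 13, 8 on chromosome 3, 2 on chromosome 11 and 1 on chromosome 6, and Hist1h2ap matched 2 genes.

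Cells of NIH3T3, a fibroblast line from mouse embryos, were put under stress in 2 experiments, and polyA-selected RNA was sequenced in 16 libraries, 2 per group. In the heat experiment an untreated control was compared with cells kept at 44 °C for 2 h and cells kept at 42 °C for 8 h. In the other experiment 1 untreated control served both oxidative stress (H2O2 for 2 h or 7 h) and osmotic stress (KCl for 2 h or 7 h), and these 5 groups also had ribosome footprints, with 10 libraries in all. The study asked how stress-induced transcription past gene ends reaches neighbouring genes. The labels give no concentration for H2O2 or KCl and do not say whether replicates were separate cultures, so the p-values measure only the spread between these libraries, which may be technical.

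A histone octamer holds a pair each of H2A, H2B, H3 and H4, the core histones, and H1 is the linker histone that binds the DNA between octamers. Most messenger RNAs of this family are made in S phase and end in a conserved stem-loop, bound by SLBP and cut with the help of the U7 small nuclear RNA, in place of a polyA tail. A polyA-selected library is therefore meant to read the minority of transcripts that do carry a tail, whereas ribosome footprints come from translated messages whether tailed or not. Tails were not measured, and RNAs made without a tail were also found in these libraries. In cultured cells these messages are known to be degraded quickly when DNA synthesis stops. In bulk samples such as these, fewer cells in S phase and less RNA per cell cannot be told apart.

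Several members have near-identical coding sequences, so a read can match more than 1 copy. The rows of Hist1h2bq and Hist1h2br were identical in every RNA library. Among footprints the rows of Hist1h2ag, Hist1h2ao and Hist1h2ap were identical, as were those of Hist1h4m and Hist1h4n and those of Hist2h3b and Hist2h3c2. Values of single copies within such groups are uncertain, and counts of called members contain rows that are not independent. Annotated spans also differed: Hist1h2be covered 37455 bases, Hist1h2bp 14079, Hist1h2bc 8282 and Hist2h2be 2667.

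The promoters show what the family shares in sequence. RefSeq (GRCm38.p6) held a promoter for 57 of the 64 members, and the 250 bases before each start were searched. The CCAAT box, read on both strands as CCAAT or ATTGG, was in 47 of them, 82.5%, against 33.8% of all 32851 promoters. It was in 6 of 6 H1, 15 of 15 H2A, 15 of 15 H2B and 8 of 9 H3 promoters, but in 3 of 12 H4 promoters. The octamer ATTTGCAT, read on both strands, was in 6 of 15 H2A and 5 of 15 H2B promoters and in none of the H1, H3 or H4 promoters, 19.3% in all against 1.60% of all promoters. TATAAA, read on the gene's strand, was in 38.6% of the members' promoters and 7.59% of all. A core of the heat shock element, GAANNTTC or TTCNNGAA, was in 15.8% and 12.8%. These matches describe letters in a window and not bound sites. In 8 pairs an H2A and an H2B gene start 164 to 249 bases apart on opposite strands, so their windows overlap. A site there can count for both genes, as the octamer of Hist1h2ah and Hist1h2bk does, so the H2A and H2B counts are not independent. The sequences shown are the stretches next to the start of the genes with the greatest and the next greatest rise at 44 °C, the H1 gene that fell there, and the H4 gene with the highest RNA level. Capitals mark the CCAAT box in either orientation, the octamer and TATAAA. They lie at chr13:21787313-21787487 on the plus strand (Hist1h2bp), chr13:22035644-22035818 on the minus strand (Hist1h2ah), chr13:23738632-23738806 on the plus strand (Hist1h1c) and chr13:22041363-22041537 on the minus strand (Hist1h4i).
Hist1h2bp: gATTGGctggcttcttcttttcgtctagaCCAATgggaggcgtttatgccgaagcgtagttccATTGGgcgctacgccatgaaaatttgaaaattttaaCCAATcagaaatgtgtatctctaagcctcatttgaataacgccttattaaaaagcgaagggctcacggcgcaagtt
Hist1h2ah: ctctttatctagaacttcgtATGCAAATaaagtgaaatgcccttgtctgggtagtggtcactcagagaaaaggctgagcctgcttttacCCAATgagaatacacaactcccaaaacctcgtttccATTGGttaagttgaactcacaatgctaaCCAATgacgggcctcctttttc
Hist1h1c: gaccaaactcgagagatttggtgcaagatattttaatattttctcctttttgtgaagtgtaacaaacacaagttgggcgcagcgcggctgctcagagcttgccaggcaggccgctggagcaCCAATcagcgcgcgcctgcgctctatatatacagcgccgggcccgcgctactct
Hist1h4i: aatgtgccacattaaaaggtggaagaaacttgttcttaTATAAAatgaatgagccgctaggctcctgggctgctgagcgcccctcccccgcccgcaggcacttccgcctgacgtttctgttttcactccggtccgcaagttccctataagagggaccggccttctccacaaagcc
Of these, Hist1h2bp and Hist1h2ah carried several CCAAT boxes, Hist1h2ah also the octamer in its reverse form, Hist1h1c 1 CCAAT box, and Hist1h4i TATAAA without a CCAAT box in this stretch.

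RNA libraries held between 24441877 and 45244430 counts and footprint libraries between 1460751 and 5168537. Markers of fibroblasts summed to between 4716 and 12035 TPM (a transcript level corrected for gene length and depth) in every RNA library, with Lum near 0. Of 9 tested, 0 were called higher and 9 lower at 44 °C, and 2 and 6 at 42 °C. After 2 h and 7 h of H2O2 those higher numbered 1 and 0 and those lower 4 and 9. After 2 h and 7 h of KCl those higher numbered 5 and 4 and those lower 0 and 4. Markers of epithelial, endothelial and blood cells summed to between 18.7 and 52.9 TPM, with Ptprc, Cdh5, Alb and Hba-a1 near 0. Of those tested, 3 of 5 were called higher at 44 °C (median log2 fold change 0.72) and 2 of 5 at 42 °C, with none lower at either. After 2 h and 7 h of H2O2 4 and 3 of 6 were higher with 0 and 1 lower, and after 2 h and 7 h of KCl 3 and 2 were higher with 0 and 1 lower. Cd68, a macrophage gene, ranged from 5.32 to 44.7 TPM and rose by 2.17 on the log2 scale after 7 h of H2O2, and Pecam1, an endothelial gene, ranged from 0.0 to 2.14 TPM and rose by 5.22 after 2 h. Of all genes tested, 35.4% were called higher and 35.7% lower at 44 °C, and 31.7% and 31.9% at 42 °C. The shares were 27.3% and 26.5% after 2 h and 39.4% and 31.1% after 7 h of H2O2. Under KCl they were 27.2% and 27.0% after 2 h and 37.2% and 31.6% after 7 h. The part of these markers in the members' changes was not tested.

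In unstressed cells the polyA-selected RNA of the family was concentrated in a few genes. Over the 4 control RNA libraries Hist1h2ap, an H2A gene, averaged 332.0 ± 43.7 TPM (SD, n = 4) and made up 61.1% of the family's summed TPM. Next came the H2B gene Hist1h2bc at 55.6 ± 7.93 TPM, the linker histone gene Hist1h1c at 41.7 ± 8.93 TPM and the H4 gene Hist1h4i at 28.8 ± 6.67 TPM (SD, n = 4 each). Hist1h2bc stood at 61.4 and 63.5 TPM in the heat controls and 47.9 and 49.7 in the other controls. In the same order Hist1h1c stood at 31.1, 40.1, 42.8 and 52.8. Hist1h4i stood at 19.8, 30.1, 29.2 and 35.9, below Hist1h1c in each control library. These differences were not tested. The first 4 genes held 84.4% of the sum, and 34 of the 64 members averaged under 1 TPM. The H3 gene with the highest level, Hist1h3c, averaged 4.06 ± 0.413 TPM (SD, n = 4).

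Footprints gave another order. The 63 members in the footprint table took 2.84% ± 0.746 (SD, n = 2) of all footprint counts in the control, and the 64 members took 0.0111% ± 0.00027 (SD, n = 2) of RNA counts. Hist1h2ap had 499 footprint TPM on average, below Hist1h1c with 1077, while Hist1h3c had 3661 and the H2B gene Hist1h2bg 4141. Footprints were listed at 0 in every library for Hist1h2bc, Hist1h2bk and Hist1h2ah, so the members' RNA and footprint tables do not assign reads to the same copies throughout. The ratio of summed footprint TPM to summed RNA TPM was 162 ± 36.3 for the family in the control (SD, n = 2). For 12 rows listed as histone variants made outside S phase, the ratio was 1.23 ± 0.0298 (SD, n = 2). Whether each of these carries a tail was not measured. Single rows ranged from 0.570 to 7.82, with H2afj at 7.82, H2afx at 5.97 and H2az2 at 5.43, and a median of 0.729. H2az2, at 1.985 RNA TPM, and H2afv, at 67.3 RNA TPM with a ratio of 0.688, are rows of 1 gene. By class the family's ratio was 1202 for H3, 575 for H4, 443 for H2B, 85.9 for H1 and 31.8 for H2A, the class that holds Hist1h2ap. Of the 10939 genes with at least 1 TPM of RNA in the control, 44 had a ratio above 10, which is 0.402%, and 23 of those 44 were members. Among the 28 members at that RNA level the median ratio was 440, against 0.602 over all genes, and none of the 12 variant rows was above 10.

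**Figure D1:**
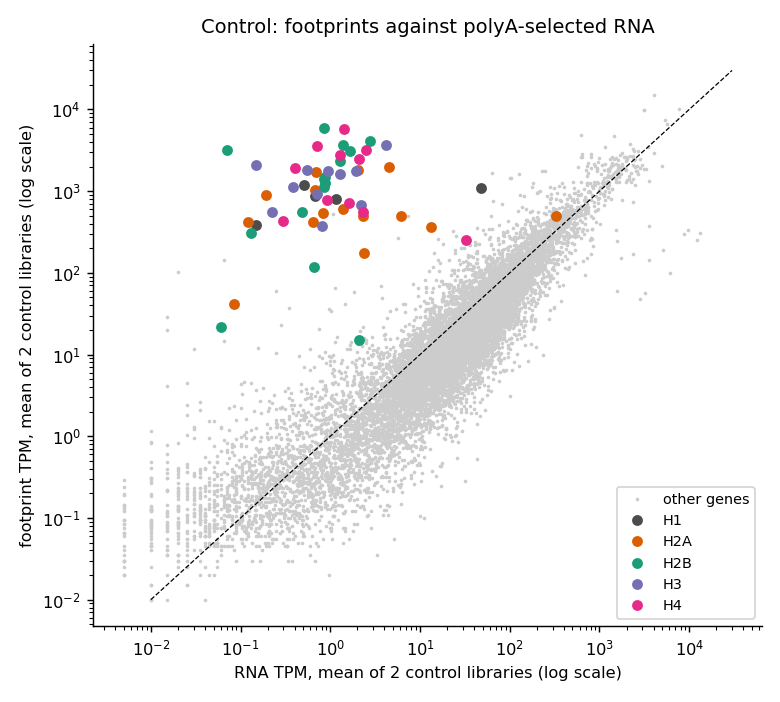
Mean RNA TPM (x axis, log scale) against mean footprint TPM (y axis, log scale) in the untreated control of the H2O2 and KCl experiment, each point being 1 gene, members coloured by class, the dashed line equal values, and genes at 0 on either axis left out. Most members lie far above the bulk of genes: the median footprint to RNA ratio was 440 for the 28 members with at least 1 RNA TPM and 0.602 for all genes at that level.

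At 44 °C for 2 h the dominant H2A gene fell, and genes of all 5 classes were among the members called higher. The summed RNA TPM of the family was 594 and 506 in the heat controls, 416 and 441 at 44 °C, and 284 and 272 at 42 °C. Without Hist1h2ap the sums averaged 212 ± 12.7 in the controls, 360 ± 16.5 at 44 °C and 219 ± 6.27 at 42 °C (SD, n = 2 each). The direction at 44 °C thus turned on 1 gene: the ratio to control was 0.78 with Hist1h2ap and 1.70 without it. At 42 °C the ratio was 0.505 with it and 1.04 without it.

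Hist1h2ap stood at 63.9 and 46.6 CPM (counts scaled to a common depth with TMM factors) in the heat controls, 10.5 and 11.0 at 44 °C and 13.0 and 8.88 at 42 °C. Both heat groups lay wholly below the controls. Its log2 fold change was −2.37 at 44 °C (SE 0.15, edgeR adjusted p = 4.42e-09) and −2.32 at 42 °C (SE 0.15, edgeR adjusted p = 1.17e-08). Among the H2A genes Hist1h2ao and Hist1h2af were also lower at 44 °C, with log2 fold changes of −1.60 and −1.27.

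Of the 41 members tested at 44 °C, 26 were called higher and 4 lower at an adjusted p of at most 0.05. That is 63.4% and 9.76% of them, where 35.4% and 35.7% of the 12747 genes tested were called. The median log2 fold change was 1.14 over the tested members and −0.0003 over all genes. Of the 41, 17 reached the low-count cutoff in neither control library and so could enter the test only through the heated libraries, and 15 reached it in both. Of those 15, 8 were called higher and 4 lower, with a median of 0.54, and of the other 26, 18 were called higher and 0 lower. Without the low-count filter 26 of 63 members were called higher and 5 lower, 41.3% and 7.94%, against 29.0% and 30.0% of all genes then tested, and the members' median was 0.90. By class the members called higher were 2 of 4 H1, 5 of 11 H2A, 8 of 11 H2B, 5 of 8 H3 and 6 of 7 H4, and the 4 called lower were 1 H1 and 3 H2A genes. DESeq2 called 17 members higher in place of 26.

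The greatest rise was in Hist1h2bp, an H2B gene, with 0 and 4 counts in the controls, 100 and 105 at 44 °C and 5 and 7 at 42 °C. The log2 fold change was 5.76 (SE 0.46). Hist1h2ah, an H2A gene, followed, from 0.161 and 0.0 CPM to 0.932 and 1.97. The H3 gene Hist1h3d went from 7 and 0 counts in the controls to 48 and 52, a log2 fold change of 3.97 (SE 0.51). These low control counts leave the size of such folds imprecise. Hist1h2bp, Hist1h2ah and Hist1h3d were below the low-count cutoff in each control library and entered the test only through heated libraries. Their calls are thus not independent of the filter. At moderate counts the H2B gene Hist2h2be rose from 3.03 and 3.34 CPM to 11.0 and 12.3, a log2 fold change of 1.87 (SE 0.12, edgeR adjusted p = 4.63e-09). The H2B gene Hist1h2bc went from 17.7 and 18.4 CPM to 24.7 and 25.3, a log2 fold change of 0.47 (SE 0.06). Hist1h4i, which encodes H4, rose by 0.95 (SE 0.18).

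The linker histone genes split at 44 °C. Hist1h1c fell from 9.03 and 11.6 CPM to 2.80 and 2.81, a log2 fold change of −1.87 (SE 0.14, edgeR adjusted p = 2.50e-08). Hist1h1a moved from 0 and 4 counts to 28 and 24, a log2 fold change of 3.78 (SE 0.60), and Hist1h1b by 1.54 (SE 0.61). Hist1h1a and Hist1h1b were below the low-count cutoff in each control library and entered the test only through heated libraries. The summed H1 TPM was 0.416 times control, since Hist1h1c made up most of it.

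Among tested members, cells held at 42 °C for 8 h had called rises in H3 and H4 genes and none in H2B genes. Of the 41 tested members 16 were called higher and 5 lower, 39.0% and 12.2%, against 31.7% and 31.9% of all genes tested. The median log2 fold change was 0.68 in tested members and −0.01 in all genes. Members called higher were 7 of 7 H4, 5 of 8 H3, 3 of 4 H1 and 1 of 11 H2A genes, while 3 of 11 H2B and 2 H2A genes were called lower. The family holds 13 H4 and 11 H3 genes, and those below the low-count filter were not tested. Of the 41, 17 reached its cutoff in neither control and could enter the test only through the heated libraries. The class counts were not split by control level, so a class difference cannot be told apart from the filter. Hist1h4n, an H4 gene, went from 0 and 11 counts to 54 and 52, a log2 fold change of 3.58 (SE 0.54). Hist1h1a rose by 3.46 (SE 0.64) and Hist1h3f, an H3 gene, by 2.58 (SE 0.64). Hist1h4n was below the cutoff in heat control replicate 1, and Hist1h1a and Hist1h3f in each heat control. Their calls are thus not independent of the filter. Hist1h4i moved by 0.50 (SE 0.19), a call that was lost without heat control replicate 1 (0.22) and without either 42 °C library. Hist1h2bg, an H2B gene, was called lower by −1.35, and this call too was lost without heat control replicate 1 (−0.66) or without either 42 °C library. Without a low-count filter 17 of 63 members were called higher and 8 lower, 27.0% and 12.7%, against 25.7% and 26.8% of all genes then tested. The share called higher was then near the background. Among the 15 members at the cutoff in both heat controls 3 were higher and 5 lower, with a median of −0.32, whereas among the other 26, 13 were higher and 0 lower, with a median of 1.38.

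The heat groups were also compared directly with each other. At 42 °C against 44 °C, 4 of the 41 tested members were higher and 17 lower, against 37.9% and 37.2% of all genes, and the median member difference was −0.45 on the log2 scale. Hist1h2bp was lower at 42 °C by −3.90, Hist2h2be by −2.65 (SE 0.13) and the H2A gene Hist3h2a by −2.23 (SE 0.21). Hist2h2be stood at 1.80 and 1.90 CPM at 42 °C, below its controls, where at 44 °C it stood above them. In the other direction Hist1h1c was higher at 42 °C by 1.76 (SE 0.14) and Hist1h4d, an H4 gene, by 1.91 (SE 0.40).

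RNAs that are made without a polyA tail rose with the same heat groups. The 18 listed RNAs of this kind summed to 181 and 101 TPM in the heat controls, 319 and 318 at 44 °C and 1815 and 1838 at 42 °C, and 6 of the 7 tested were called higher at each temperature, where 35.4% of all genes were at 44 °C and 31.7% at 42 °C. Rmrp, the RNA of RNase MRP, had a log2 fold change of 4.09 at 44 °C and 8.30 at 42 °C. In the other experiment these RNAs summed to between 43.9 and 173 TPM. Of 5 tested, 1 was called higher and 0 lower at each H2O2 time, 2 higher and 0 lower after 2 h of KCl, and 3 higher and 2 lower after 7 h of KCl, with a median of 1.44 there. Of all genes 27.3% were higher and 26.5% lower after 2 h of H2O2, and 39.4% and 31.1% after 7 h. Under KCl the shares were 27.2% and 27.0% after 2 h and 37.2% and 31.6% after 7 h. Rn7s1 and Rn7s2 had identical rows here, and equal lowest, median and highest TPM over the RNA libraries. Counts and sums over this list thus hold rows that are not independent. The part of these RNAs in the members' rises under heat and after 7 h of KCl was not tested. The family sum without Hist1h2ap was higher at 44 °C than at 42 °C, while the sum over these RNAs was higher at 42 °C. Single members went either way: Hist1h4n had 27 and 32 counts at 44 °C and 54 and 52 at 42 °C, and Hist1h2bp 100 and 105, then 5 and 7. Whether members moved with these RNAs was not tested.

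**Figure D2:**
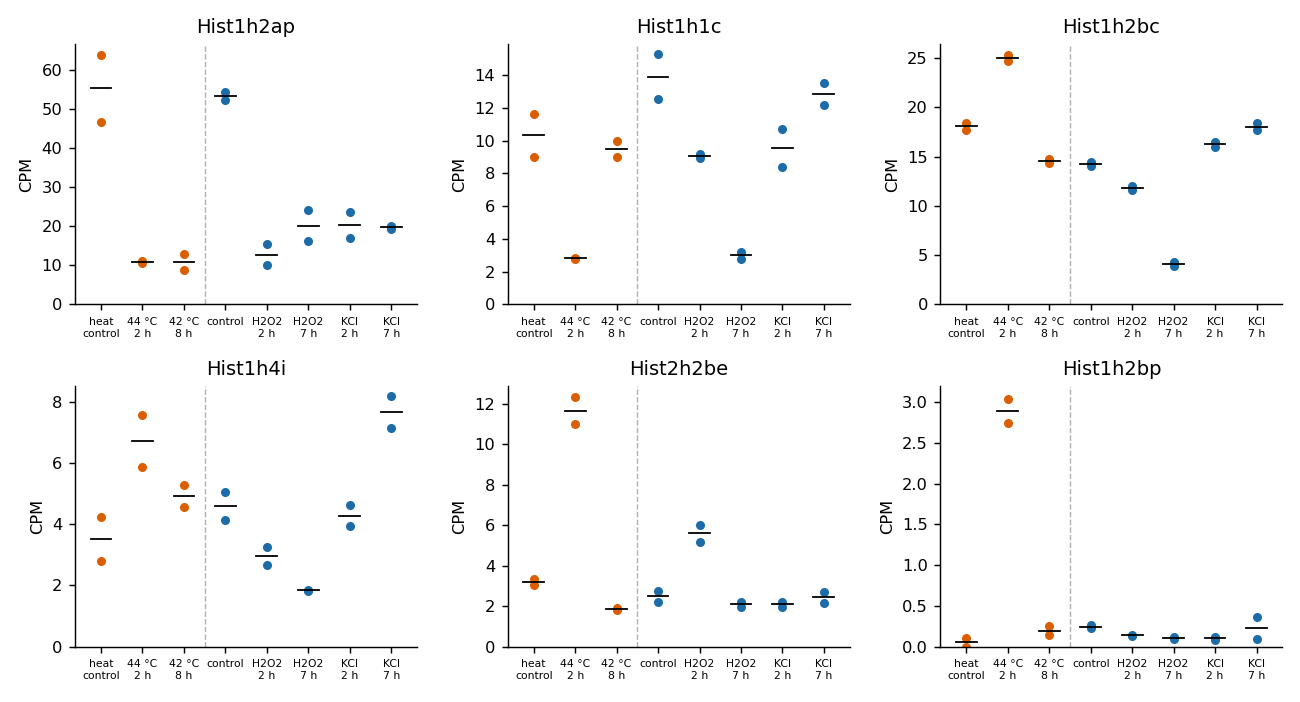
Normalised CPM per library (y axis, linear and starting at 0, with a range of its own for each gene) of 6 members in each RNA group (x axis), each point being 1 library and each bar a group mean. Hist1h2ap is lower in every stress group than in its control, while Hist2h2be is higher at 44 °C, at 11.0 and 12.3 CPM against 3.03 and 3.34.

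Under H2O2 the 4 members with the highest control RNA levels, Hist1h2ap, Hist1h2bc, Hist1h1c and Hist1h4i, were called lower at both times. Summed RNA TPM was 528 and 545 in the controls, 243 and 201 after 2 h and 222 and 182 after 7 h. Without Hist1h2ap the sum averaged 210 ± 18.5 in the controls, 144 ± 7.52 at 2 h and 85.9 ± 4.29 at 7 h (SD, n = 2 each), which is 0.686 and 0.408 times control. By class at 7 h the summed level was 0.211 times control for H1, 0.308 for H2B, 0.398 for H2A, 0.423 for H4 and 0.583 for H3, with no overlap between the libraries in any class.

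Hist1h2ap stood at 54.4 and 52.4 CPM in the controls, 15.3 and 10.1 after 2 h and 24.0 and 16.2 after 7 h of H2O2. Neither time overlapped the controls. The log2 fold changes were −2.08 (SE 0.18, edgeR adjusted p = 4.70e-07) and −1.40 (SE 0.18, edgeR adjusted p = 6.77e-06). Hist1h2bc went from 14.1 and 14.4 CPM to 11.6 and 12.0 at 2 h and 3.85 and 4.27 at 7 h. Its change at 7 h was −1.82 (SE 0.10, edgeR adjusted p = 5.46e-10), and at 2 h −0.27, a call lost without control replicate 2 or without H2O2 2 h replicate 1 (−0.25 in each). Hist1h1c stood at 12.5 and 15.3 CPM in the controls, 9.20 and 8.93 at 2 h and 2.79 and 3.20 at 7 h, with changes of −0.61 and −2.22 (SE 0.15, edgeR adjusted p = 7.41e-09). Hist1h4i fell by 0.63 and 1.31 on the log2 scale.

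Of the 24 members tested in this experiment, 5 reached the low-count cutoff in neither control library. After 2 h of H2O2, 1 was called higher and 8 lower, or 33.3% lower, against 27.3% higher and 26.5% lower among the 13256 genes tested. After 7 h none was called higher, by edgeR, by DESeq2 or at an unadjusted p under 0.05, and 7, or 29.2%, were called lower, against 39.4% and 31.1% of all genes. The share called lower at 7 h was therefore near the background, while the median log2 fold change was −1.01 in tested members and 0.08 in all genes. At 2 h the medians were −0.62 and −0.0009. Without the low-count filter 14 of 64 members were called lower and 1 higher at 2 h, against 22.9% lower and 23.3% higher of all genes then tested. At 7 h 13 were lower and 1 higher, against 25.8% and 32.5%. All members called with the filter were among the 15 at the cutoff in both controls.

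The 1 member called higher after 2 h of H2O2 was Hist2h2be, the H2B gene that was also higher at 44 °C. It stood at 2.21 and 2.75 CPM in the controls, 5.17 and 6.03 at 2 h and 2.18 and 1.98 at 7 h. Its change at 2 h was 1.19 (SE 0.15, edgeR adjusted p = 1.90e-05). The H3 gene Hist2h3c2 had 21 and 21 counts in the controls, 0 and 3 at 2 h and 26 and 11 at 7 h, a log2 fold change of −3.30 at 2 h (SE 0.73, edgeR adjusted p = 0.00168) and 0.37 at 7 h, which was not called. Hist1h2be and Hist1h3g, of H2B and H3, had the greatest falls at 7 h, −3.42 (SE 0.75) and −3.41 (SE 0.81), with 3 and 0 counts left for Hist1h2be and 0 and 2 for Hist1h3g. The H4 gene Hist1h4a lay outside the test, with no count in either control and 19 counts over both libraries at 7 h of H2O2, which is at least 9.12-fold higher when the control is set to a floor of 3 counts over the group.

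Between 2 h and 7 h of H2O2, 4 tested members were higher at 7 h and 8 lower, against 37.3% and 36.1% of all genes. Hist1h2bc was lower at 7 h by −1.55 (SE 0.10), Hist1h1c by −1.60 (SE 0.16) and Hist2h2be by −1.42 (SE 0.17). Hist1h2ap was higher at 7 h than at 2 h by 0.68 (SE 0.20), Hist3h2a by 1.23 (SE 0.25) and Hist2h3c2 by 3.67 (SE 0.72).

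Under KCl Hist1h2ap was lower at both times. After 7 h 6 of the 24 tested members were called higher, against 37.2% of all genes. Those 6 include the identical rows of Hist1h2bq and Hist1h2br, which are not independent. Summed RNA TPM was 308 and 248 after 2 h and 363 and 343 after 7 h, each below the controls. Without Hist1h2ap the sum averaged 164 ± 14.2 at 2 h and 241 ± 12.4 at 7 h (SD, n = 2 each), or 0.779 and 1.14 times control. At 7 h the direction of the sum thus turned when this gene was left out. Summed H3 TPM was 1.64 times control at 7 h, H4 1.35 and H2B 1.18, without overlap, and H2A 0.410.

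Hist1h2ap stood at 23.7 and 17.1 CPM after 2 h of KCl and 20.1 and 19.3 after 7 h, below both controls each time. The changes were −1.39 (SE 0.18, edgeR adjusted p = 1.69e-05) and −1.44 (SE 0.18, edgeR adjusted p = 6.68e-06). Hist1h4i was at 4.14 and 5.03 CPM in the controls, 4.61 and 3.93 at 2 h and 8.18 and 7.15 at 7 h, overlapping the controls at 2 h only. It was called at 7 h, with a change of 0.75 (SE 0.14). Hist1h2bq and Hist1h2br, whose rows are identical H2B copies, had 12 and 7 counts in the controls, 13 and 14 at 2 h and 67 and 52 at 7 h. Their change at 7 h was 3.40 (SE 0.30). The H3 gene Hist1h3b rose by 2.31 (SE 0.55) at 7 h, and Hist1h1c, at 13.5 and 12.2 CPM, was not called (−0.10). Hist1h2bq, Hist1h2br and Hist1h3b were below the low-count cutoff in each control library and entered the test only through stressed libraries. Their calls are thus not independent of the filter.

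After 2 h of KCl 2 of the 24 tested members were called higher and 3 lower, against 27.2% and 27.0% of all genes, with medians of −0.48 in members and 0.0 in all genes. The 2 called higher were the identical rows of Hist1h2bq and Hist1h2br (1.30, SE 0.40), and neither DESeq2 nor the fit without KCl 2 h replicate 2 called either, while leaving out control replicate 2 left 1 other member called higher. After 7 h 6 were called higher and 1, Hist1h2ap, lower, against 37.2% and 31.6% of all genes. The members' median there was 0.30 and that of all genes 0.04, and leaving out KCl 7 h replicate 1 raised the count called lower to 3, leaving out control replicate 2 to 2. Without the low-count filter 2 of 64 members were called higher and 7 lower at 2 h, against 21.5% and 22.8% of all genes then tested, and 9 higher and 2 lower at 7 h, against 29.3% and 26.1%. Among the 15 members at the cutoff in both controls 0 were higher and 3 lower at 2 h, and 3 higher and 1 lower at 7 h.

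At 7 h against 2 h of KCl 9 tested members were called higher and none lower, by edgeR at the adjusted threshold or at an unadjusted p under 0.05, against 35.1% and 33.7% of all genes. The 9 included Hist1h4i (0.85, SE 0.15), Hist3h2a (1.27, SE 0.24), Hist1h1c (0.44, SE 0.13) and Hist2h3c2 (1.67, SE 0.48), and the count was 5 without KCl 2 h replicate 2.

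H2O2 and KCl were compared at the same times. At 2 h 1 tested member was higher under H2O2 and 4 lower, against 27.0% and 24.2% of all genes, and 3 members were called in all without KCl 2 h replicate 1. Hist2h2be was the one higher under H2O2, by 1.41 (SE 0.17). At 7 h none was higher under H2O2 by edgeR, with or without the adjustment, and 9 were lower, against 41.0% and 37.4% of all genes. These included Hist1h2bc (−2.16, SE 0.10), Hist1h1c (−2.11, SE 0.16) and Hist1h4i (−2.06, SE 0.17). The labels give no concentrations, so the doses of the agents cannot be matched.

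**Figure D3:**
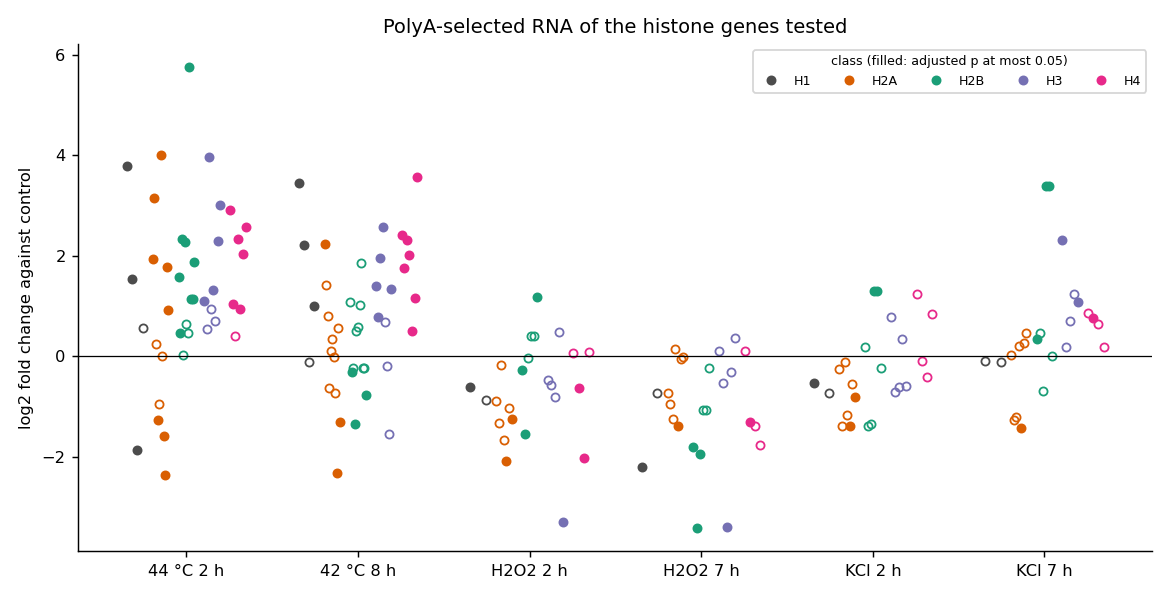
Log2 fold change in RNA (y axis) of each tested member in the stress groups against control (x axis), coloured by class, with filled points for members called at an adjusted p of at most 0.05. At 44 °C 26 of 41 tested members are called higher, against 35.4% of all genes. Of the 41, 17 reached the low-count cutoff in neither control library. After 7 h of H2O2 none of 24 is called higher, against 39.4% of all genes.

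Ribosome footprints covered most members well, with 59 of the 63 in the footprint table tested and 57 at the cutoff in both control libraries. After 7 h of either agent members of all 5 classes were called lower. The summed footprint TPM of the family was 72155 and 102489 in the controls, 96611 and 59372 after 2 h of H2O2, and 58402 and 42689 after 7 h. It was 57805 and 68337 after 2 h of KCl and 56526 and 51658 after 7 h. The 2 h H2O2 libraries overlapped the controls, while the other groups lay below both controls, at 0.579, 0.722 and 0.619 times the control mean.

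**Figure D4:**
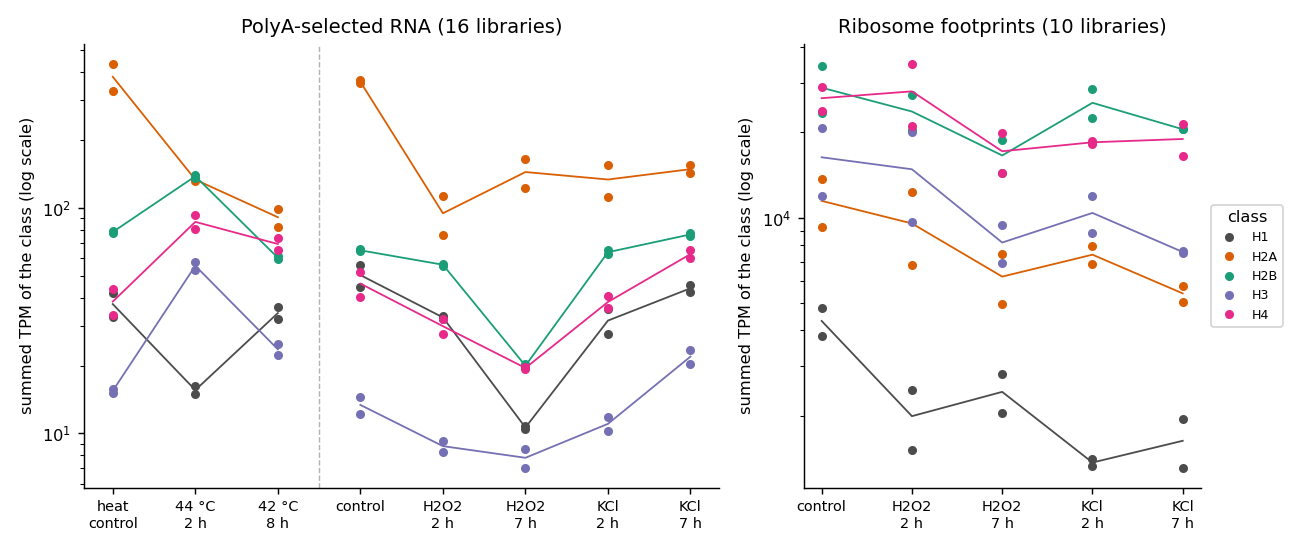
Summed TPM of the members in each class (y axis, log scale) in every RNA library (left) and footprint library (right) by group (x axis), each point being 1 library and lines joining group means. H2A sums are lower in every RNA stress group than in the matching controls, and H1 footprints are lower in all 4 stress groups than in both controls.

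After 7 h of H2O2 32 of the 59 tested members had fewer footprints and none had more, where 17.2% of the 10545 genes tested were higher and 10.6% lower. The members' share called lower was 54.2%, and their median log2 fold change −1.04, against 0.0075 over all genes. Called lower were 4 of 5 H1, 9 of 15 H2A, 6 of 15 H2B, 9 of 11 H3 and 4 of 13 H4 genes. At an unadjusted p under 0.05 42 were lower and none higher, and DESeq2 called none higher. Leaving out footprint control replicate 2 left 10 called lower and 1 higher, and leaving out H2O2 7 h replicate 2 left 8 lower. After 7 h of KCl 25 were lower, or 42.4%, and none higher, against 9.83% and 10.5% of all genes, with a median of −0.93 in members and −0.02 in all genes. At an unadjusted p under 0.05 32 were lower and 1 higher, and DESeq2 called 1 higher. Without footprint control replicate 2 the count called lower was 11 with 1 higher, without KCl 7 h replicate 1 it was 14 and without replicate 2 it was 13. Both comparisons share the same controls.

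Of the 5 tested linker histone genes, 2 had called falls in footprints after 2 h of H2O2 and 5 after 2 h of KCl. Hist1h1b stood at 650 and 853 CPM in the controls, 383 and 244 after 2 h and 296 and 202 after 7 h of H2O2, and 256 and 303 after 2 h and 185 and 268 after 7 h of KCl. All 8 stressed libraries lay below both controls, with log2 fold changes of −1.27, −1.59, −1.43 and −1.73 in that order. Hist1h1d stood at 441 and 641 CPM in the controls and at 75.8 and 77.5 after 2 h of KCl, a change of −2.82 (SE 0.33, edgeR adjusted p = 0.000387). Its other changes were −1.49 and −1.07 under H2O2 and −2.22 after 7 h of KCl, without overlap with the controls. Summed H1 footprint TPM was 0.461 times control after 2 h and 0.562 times after 7 h of H2O2, and 0.316 and 0.378 times under KCl.

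After 2 h of KCl 8 tested members had fewer footprints, or 13.6%, and none more, against 5.06% and 1.79% of all genes. They were Hist1h1a, Hist1h1b, Hist1h1c, Hist1h1d and Hist1h1e, which are all 5 tested H1 genes, and Hist2h2ab, Hist1h3f and Hist1h4f. At an unadjusted p under 0.05 24 were lower and 2 higher, and DESeq2 called none higher. The count called lower was 5 without footprint control replicate 2, which also gave 1 higher, 3 without KCl 2 h replicate 1 and 4 without replicate 2. The call for Hist1h1c (−1.51, SE 0.31) was lost without any of these 3 libraries. After 2 h of H2O2 the 2 called lower were Hist1h1b and Hist1h1d, and none was higher, against 0.768% and 1.14% of all genes. Unadjusted, 13 were lower and 3 higher, and DESeq2 called 6 lower and none higher. The count called lower was 0 without footprint control replicate 2 or H2O2 2 h replicate 2 and 1 without control replicate 1, and leaving out control replicate 2 gave 1 called higher.

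Hist1h2br, an H2B gene, stood at 1737 and 2294 CPM in the controls, 1174 and 763 after 7 h of H2O2 and 1778 and 1263 after 7 h of KCl. It was called lower at 7 h of H2O2 (−1.06, SE 0.25), a call lost without control replicate 2 (−0.84) or H2O2 7 h replicate 2 (−0.81). The H4 gene Hist1h4d stood at 1428 and 1349 CPM in the controls and 919 and 847 after 7 h of H2O2, with a change of −0.65 (SE 0.21), a call lost without either control or either of those libraries. The greatest called falls in footprints at each 7 h time were in genes with uneven counts. Hist1h2bl, of H2B, had 354 and 962 counts in the controls and 17 and 0 after 7 h of KCl (−5.93, SE 1.56), yet 0 and 614 after 2 h of KCl. Hist1h3h, of H3, had 234 and 1206 counts in the controls and 140 and 0 after 7 h of H2O2 (−3.28, SE 1.02). Better measured at 7 h of KCl were the H2A gene Hist2h2ac (−2.68, SE 0.37) and the H3 gene Hist1h3a (−2.01, SE 0.30).

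**Figure D5:**
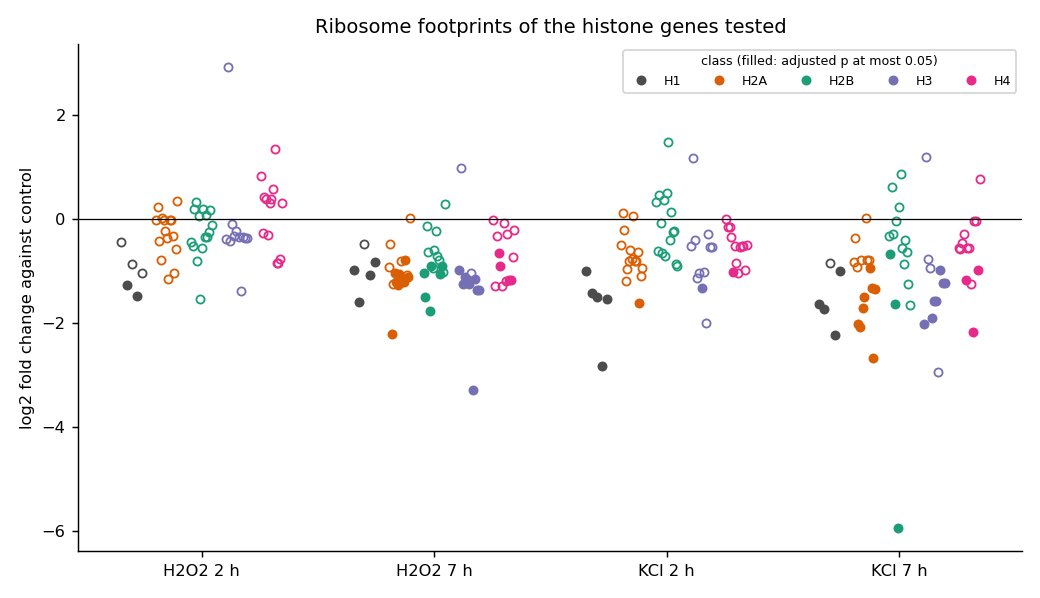
Log2 fold change in ribosome footprints (y axis) of each tested member against control in the 4 stress groups (x axis), coloured by class, with filled points for members called at an adjusted p of at most 0.05. No member is called higher. After 7 h of H2O2 32 of 59 are called lower, against 10.6% of all genes. After 7 h of KCl 25 are, against 9.83% of all genes.

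Footprints and polyA-selected RNA could be set against each other in 1 model for 23 members. This ratio is thus of footprints on all messages to the part of the RNA that polyA selection recovered. After 2 h of H2O2 1 member was higher, Hist1h2ap (1.95, SE 0.47, edgeR adjusted p = 0.0132), and none lower, against 3.98% and 7.46% of all 10480 genes tested. That call was lost without RNA H2O2 2 h replicate 2 (1.69) or footprint H2O2 2 h replicate 1 (1.13). The footprint row of Hist1h2ap is identical to those of Hist1h2ag and Hist1h2ao, so its ratio cannot be assigned to this copy alone. The members called higher numbered 3 without footprint control replicate 2, which also gave 1 lower, and 4 without footprint H2O2 2 h replicate 2. After 7 h 1 was higher, Hist1h1c (1.73, SE 0.40, edgeR adjusted p = 0.0120), and none lower, against 4.69% and 4.57%. This call was lost without RNA control replicate 2 (1.58) or RNA H2O2 7 h replicate 1 (1.64), and 2 members were called without footprint control replicate 2.

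Under KCl the ratio was lower or not called. After 2 h no member was called, against 3.58% higher and 9.18% lower of all genes, with 3 lower and none higher at an unadjusted p under 0.05 and 1 called lower without footprint control replicate 1. After 7 h 3 were lower and none higher, against 3.88% and 1.69%, with 8 lower and none higher unadjusted. They were Hist1h2br (−3.76, SE 0.44, edgeR adjusted p = 0.000191), Hist1h2bq (−4.21, SE 1.15) and Hist3h2a (−1.78, SE 0.48). Hist1h2br and Hist1h2bq have identical RNA rows, called higher after 7 h of KCl, so their ratio calls are not independent. Without RNA control replicate 1 or 2, RNA KCl 7 h replicate 1 or 2, footprint control replicate 2 or footprint KCl 7 h replicate 1, 1 member was called. Without footprint control replicate 1, 5 members were called. The ratio of summed TPM was 347 ± 71.7 and 249 ± 20.8 after 2 h and 7 h of H2O2, 232 ± 62.1 and 153 ± 3.71 after 2 h and 7 h of KCl, and 162 ± 36.3 in the control (SD, n = 2 each).

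The authors' calls of transcription past gene ends covered 44 gene pairs with a member upstream, of which 36 had a member on both sides. A call of this kind, a downstream-of-gene transcript, was made in 20 and 27 of the 44 pairs in the 44 °C libraries, against 7 and 13 in the heat controls and 15 and 13 at 42 °C. Over all 6399 pairs 32.7% were called in each 44 °C library, against 27.9% and 26.5% in the heat controls and 32.0% and 30.5% at 42 °C. The 44 °C libraries lay above both controls for the members, and with 2 libraries a group this was not tested. In the other experiment the members' calls numbered 14 and 8 in the controls, 6 and 11 after 2 h and 7 and 3 after 7 h of H2O2, and 6 and 7 after 2 h and 12 and 9 after 7 h of KCl. All 4 groups overlapped the controls or fell below them. Over all pairs the shares were 24.2% and 25.2% in these controls, 34.4% and 35.7% after 2 h and 19.4% and 21.2% after 7 h of H2O2, and 31.9% and 34.7% after 2 h and 23.8% and 23.4% after 7 h of KCl. At 2 h of either agent the shares over all pairs thus lay above the controls, while the members' counts did not. Calls in at least 8 of the 16 libraries were made for 6 of the 44 pairs, against 20.7% of all pairs, and 14 pairs were called in 1 library only. The most frequent were downstream of Hist1h1c toward Hist1h2bb (16 libraries), of Hist1h4i toward Hist1h2ah (15), of the H2A gene Hist1h2ae toward Hist1h3e (13), of Hist1h3g toward Hist1h3f (12) and of Hist2h3c2 toward Hist2h2ac (11).

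Read-in, a call that such transcription runs into the next gene, was made for 1 member in 1 library. It was for Hist2h2be, downstream of Hist2h2ab, in 44 °C replicate 2, where 5.45% of all pairs had a read-in call in at least 1 library. Hist2h2ab itself had 0 and 1 RNA counts at 44 °C and 3 over all libraries. In RefSeq Hist2h2ac lies between Hist2h2ab and Hist2h2be. Where the transcription behind this call began was not tested. The authors' read-in estimate for Hist2h2be, a ratio, was 0.148 and 0.226 at 44 °C and 0.0281 and 0.0602 in the heat controls. At 42 °C it was 0.0588 and 0.480 without a call, on 63 and 54 counts, and after 7 h of KCl 0.244 and 0.151, also without a call. Hist2h2be counts rose from 132 and 123 to 401 and 426 at 44 °C, and the part of read-in in that rise was not tested. After 2 h of H2O2, when its RNA was also higher, the estimate was 0.0 and 0.145 without a call.

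No joint rise at 44 °C was called for members that share a promoter region. In 8 pairs on chromosome 13 an H2A and an H2B gene start 164 to 249 bases apart on opposite strands. Both genes were tested in 4 of these pairs, none had both called higher, and in 1 pair Hist1h2bq was higher (1.14) and Hist1h2ao lower (−1.60). The Hist1h2bq call was lost with DESeq2 and without heat control replicate 2 or 44 °C replicate 2, as it was for its identical row Hist1h2br (0.94 and 0.87), whose change was −0.0122 with limma on log2(TPM + 1).

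Genes that act on histone messages or move with S phase showed mixed changes. The counts for these lists stand against the shares of all genes called higher and lower, which were 35.4% and 35.7% at 44 °C, 31.7% and 31.9% at 42 °C, 27.3% and 26.5% after 2 h and 39.4% and 31.1% after 7 h of H2O2, and 27.2% and 27.0% after 2 h and 37.2% and 31.6% after 7 h of KCl. Of 30 tested rows for histone mRNA processing and decay, 15 were called higher and 7 lower at 44 °C, among them Zfp473, a U7 snRNP cofactor in histone pre-mRNA cleavage (1.44, SE 0.20), and Zcchc6, a terminal uridylyltransferase (1.32, SE 0.18). Zcchc6 and Tut7 are rows of 1 gene, as are Papd5 and Tent4b, so these rows are not independent. After 7 h of H2O2 13 were higher and 9 lower, and Zcchc11, another terminal uridylyltransferase, rose by 1.50 (SE 0.09). The counts were 19 and 4 at 42 °C, 2 and 9 after 2 h of H2O2, 5 and 7 after 2 h of KCl, and 16 and 8 after 7 h of KCl. Of 29 S phase genes, 16 were higher and 9 lower in the 44 °C cells, and 12 and 7 in the 42 °C cells. After 2 h and 7 h of H2O2 those called higher numbered 3 and 16 and those called lower 11 and 4. Under KCl those higher numbered 10 and 6 and those lower 7 and 12. Rrm2, a subunit of ribonucleotide reductase, rose by 1.50 (SE 0.06) after 7 h of H2O2, and Tk1, thymidine kinase, changed by −0.84 (SE 0.07). Footprints of the 29 S phase genes were higher for 5 and lower for 2 after 7 h of H2O2, against 17.2% and 10.6% of all genes. After 7 h of KCl they were higher for 2 and lower for 4, against 10.5% and 9.83%.

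Histone chaperones, which hand histones to DNA, and the rows listed as variants made outside S phase were set against the same shares of all genes. Of 18 chaperone genes 8 were higher and 7 lower at 44 °C, where Asf1b, a chaperone of H3 and H4, rose by 0.98 (SE 0.05), and 7 were higher and 5 lower after 7 h of H2O2, where it changed by −0.51 (SE 0.09). Chaperone genes called higher and lower numbered 12 and 3 at 42 °C and 3 and 4 after 2 h of H2O2. After 2 h of KCl they numbered 6 and 5, and after 7 h 5 and 3. Of 12 variant rows 3 were higher and 7 lower at 44 °C and 3 and 7 after 7 h of H2O2. Variant rows called higher and lower numbered 3 and 5 at 42 °C and 1 and 8 after 2 h of H2O2. After 2 h of KCl they numbered 1 and 4, and after 7 h 3 and 5. H1f0, the linker histone of non-dividing cells, changed by −1.61 (SE 0.04) at 44 °C, and Cenpa, the centromeric H3, by −1.62 (SE 0.07) after 7 h of H2O2.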

How the data were processed

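PolyA-selected RNA (16 libraries) and ribosome footprints (10 libraries) of NIH3T3 cells were measured in 13 groups of 2. Expected counts, whole as deposited and used as such, and TPM values were deposited per gene. They also deposited TRUE or FALSE calls of downstream-of-gene transcripts and read-in and a read-in estimate, a ratio with no formula in the sources used here. The submitters' processing notes name STAR, RSEM and Bowtie and the build mm10. Per the labels' protocols, a NEB kit gave the RNA libraries, and a published method the footprints. The 12 columns that matched no labelled sample were not used.

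Counts were tested with edgeR 4.0.16 (R 4.3.3), a quasi-likelihood fit with TMM factors, filterByExpr and a threshold of 0.05 on p-values adjusted by Benjamini-Hochberg across the whole table. The heat RNA, the other RNA and the footprints were fitted separately, each with all its groups sharing the spread. The footprint to RNA ratio was an interaction term over both kinds of library. On simulated data with known changes the script recovered the changed genes, with a false share among calls above the nominal threshold. Alternatives were DESeq2 1.42.0, its size factors, limma 3.58.1 on log2(TPM + 1) with a pseudocount of 1, no filter, only the 2 groups compared, a replicate block, summed symbols of 1 gene, a minimum log2 change of 1 in size, and each library left out. Deviations of same-numbered replicates correlated with a median of 0.003 in the heat RNA, 0.004 in the other RNA and 0.20 in the footprints (range −0.38 to 0.42 over 10 pairs of groups), not above 0.1 in every pair, so the numbers were not taken as pairs. Sums of TPM were compared as values without a test.

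The members and gene lists were chosen with earlier results of these data known. Named were, in each class, the 2 members with the highest control RNA level, in each RNA contrast with control the 3 tested members with the largest rise and the 3 with the largest fall, the 2 members with the most footprints and members with a footprint call, and the 5 members most often upstream of a downstream-of-gene call. Other members named in the direct contrasts were chosen after their values were seen. Promoter sequences are from RefSeq (GRCm38.p6). Total counts limit the precision of members with few reads. Intron retention was not analysed here.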

Additional observations from a re-analysis of the deposited data

Results flagged for a closer look

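Members whose RNA differed between stress groups under a direct test of the difference (edgeR, adjusted p of at most 0.05) numbered 21 of 41 tested in the comparison of the long 42 °C with the short 44 °C treatment, led by Hist1h2bp, lower at 42 °C by −3.90 on the log2 scale. Of the 21, 4 were higher and 17 lower, against 37.9% and 37.2% of all genes. Between 7 h and 2 h they numbered 12 of 24 under H2O2 (4 higher and 8 lower, against 37.3% and 36.1% of all genes) and 9 of 24 under KCl (9 higher and 0 lower, against 35.1% and 33.7%). Between H2O2 and KCl they numbered 5 of 24 at 2 h, against 27.0% higher and 24.2% lower of all genes, and 9 of 24 at 7 h, against 41.0% and 37.4%. In each of these 5 comparisons the share of members called in either direction together was below that of all genes. Groups of 2 libraries are too small to look for single outlying libraries.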

How the results depend on the processing

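Counts of called members that moved by over 1.5 times are given as the value under each alternative, beside the main count. With DESeq2, 17 in place of 26 were higher at 44 °C, 13 in place of 21 differed between the heat groups, 5 in place of 8 were lower after 2 h of H2O2, 0 in place of 2 higher after 2 h of KCl, and for footprints 6 in place of 2 were lower after 2 h of H2O2 and 1 in place of 0 higher after 7 h of KCl. Without the low-count filter, those called lower were 8 in place of 5 at 42 °C, 14 in place of 8 and 13 in place of 7 after 2 h and 7 h of H2O2 (with 1 higher in place of 0 at 7 h), 7 in place of 3 and 2 in place of 1 after 2 h and 7 h of KCl, and 18 in place of 9 differed between H2O2 and KCl at 7 h. Their footprints called lower were 6 in place of 2 after 2 h of H2O2 and 14 in place of 8 after 2 h of KCl, with 1 higher in place of 0 after 7 h of KCl. With limma on log2(TPM + 1), those lower were 9 at 42 °C, 11 after 7 h of H2O2, 5 (and 1 higher) after 2 h of KCl and 2 after 7 h of KCl, and footprints lower were 0 after 2 h of H2O2, 17 after 7 h of H2O2 and 16 after 7 h of KCl. Hist1h2br at 44 °C changed from 1.14 to −0.0122 under limma. With a minimum log2 change of 1 in size asked as well, those lower were 3 at 42 °C, 5 after 2 h of H2O2 and 1 after 2 h of KCl, and 2 differed between H2O2 and KCl at 2 h. With only the 2 groups compared, 6 were lower after 2 h of KCl, and for footprints 0 were lower after 2 h of H2O2 and 1 higher after 7 h of KCl. The cause was not tested in any of these.

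The fit with the replicate block gave 1 member with more footprints after 7 h of KCl in place of 0, and ended the call of Hist3h2a in the footprint to RNA ratio after 7 h of KCl, where its change was −1.79. The numbers are not known to pair the samples. No other named call changed with the block.

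Leaving out 1 library at a time, the members called ranged from 0 to 3 (higher, RNA, 2 h of KCl), 1 to 3 (lower, RNA, 7 h of KCl), 5 to 9 (7 h against 2 h of KCl) and 3 to 5 (H2O2 against KCl at 2 h). For footprints the ranges were 0 to 1 higher and 0 to 3 lower after 2 h of H2O2, 0 to 1 and 8 to 33 after 7 h of H2O2, 0 to 1 and 3 to 6 after 2 h of KCl, and 0 to 1 and 11 to 27 after 7 h of KCl. For the footprint to RNA ratio they were 0 to 4 higher and 0 to 1 lower after 2 h of H2O2, 0 to 2 higher after 7 h of H2O2, 0 to 1 lower after 2 h of KCl and 1 to 5 lower after 7 h of KCl. Where a group was left with 1 library, that library was assumed to vary like the others.

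The log2 ratio of the summed TPM to control without Hist1h2ap was 0.77 in place of −0.36 at 44 °C, 0.0498 in place of −0.99 at 42 °C, −0.54 in place of −1.27 after 2 h of H2O2, −0.36 in place of −0.95 after 2 h of KCl and 0.19 in place of −0.60 after 7 h of KCl. Members with few RNA counts and copies with shared sequence limit what single rows can show.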
